A study of Homo sapiens with 9 samples.

Results

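The DDX and DHX proteins are RNA helicases named for the DEAD and DEAH motifs (and their variants) in their core, and 44 of their genes are described here across 9 RNA-seq libraries of the human cell line MDA-MB-231. Members were the rows of the deposited count table whose gene identifier maps to a symbol of DDX or DHX followed by digits and at most 1 letter, 44 of 60708 rows. Pseudogene and antisense rows were left out, and so were DDX46, DHX15, DHX8, DHX16, DHX38, DDX39B, DHX9, DDX5, DDX60 and DHX58. Of the 44 members, 40 had enough counts to be tested, and DDX4, DDX25, DDX43 and DDX3Y did not.

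MDA-MB-231 is an established triple-negative breast cancer line, and no other line was used. The libraries form 3 groups of 3: cells given the solvent DMSO, cells given 10 nM Pladienolide B (PdB) for 16 h, and cells collected 24 h after that PdB exposure ended. The sample titles give no exposure or collection time for the DMSO cells. Time in culture therefore cannot be told apart from the drug and recovery in the comparisons with DMSO. Recovery cells were collected 24 h later in the course than PdB cells. In recovery against PdB, time in culture therefore cannot be told apart from the end of exposure either. PdB is a small molecule that binds the SF3b complex of the U2 snRNP and blocks early spliceosome assembly. Polyadenylated RNA was sequenced, and the design asks which genes change under the drug and which remain changed after recovery.

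RNA helicases use ATP to unwind short RNA duplexes or strip proteins from RNA, and each tends to serve 1 step of an RNA's life. Many DEAD and DEAH proteins act in the nucleolus, where pre-ribosomal RNA is folded, cut and loaded with ribosomal proteins. Others remodel snRNPs in the spliceosome, release exported mRNA at the nuclear pore, help ribosomes scan structured leaders, or hold mRNA in decay granules.

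Library totals ran from 56389689 to 67047079 counts. VIM, CD44, AXL, ZEB1, MSN and CAV1, markers of this mesenchymal line, were each at 52.4 CPM or more in every library, and summed to 7817 to 7995 CPM in DMSO, 6444 to 6708 CPM under PdB and 4141 to 4225 CPM after recovery. Of the 7 receptor and luminal markers, ESR1 was at 0 counts throughout and PGR at or under 0.0634 CPM, whereas ERBB2 was at 102 to 109.6 CPM in DMSO, 49.1 to 53.1 CPM under PdB and 72.6 to 74.5 CPM after recovery, and GATA3 at 12.4 to 14 CPM, 44.4 to 46.8 CPM and 21.4 to 23.6 CPM. The 5 leukocyte markers together made 0.952 to 1.65 CPM per library. CPM is the count scaled to library size by edgeR with TMM factors, and a gene "rose" or "fell" where edgeR's quasi-likelihood test gave a Benjamini-Hochberg adjusted p under 0.05 over all 20812 genes tested. The labels do not say that libraries of a group came from separate cultures, so these p-values measure the spread between the libraries, which may be technical.

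The helicases as a group took up 0.419 to 0.434% of all counts in the DMSO libraries, 0.349 to 0.361% under PdB and 0.551 to 0.565% after recovery. The 3 ranges did not overlap, with the lowest share under the drug and the highest after it. These shares divide by raw library totals. The TMM factors were 1.02 to 1.03 in DMSO, 0.883 to 0.923 under PdB and 1.08 to 1.09 after recovery. With these factors applied, the DMSO and PdB ranges overlap and recovery stays highest. The summed level of 5 fibroblast and endothelial markers had the same order of groups, 9.28 to 10.9 CPM in DMSO, 2.29 to 3.5 CPM under PdB and 25.7 to 26.6 CPM after recovery, nearly all of it COL1A1, while DCN stayed at or under 0.127 CPM; their part in the helicases' share was not tested. These are shares of each library: no spike-in is named in the sources used here, and less RNA per cell and fewer cells cannot be told apart. DDX21, a nucleolar helicase of pre-rRNA processing, had the highest level per kb of exon in DMSO, 81.5 ± 4.33 CPM per kb (SD, n = 3). DDX39A at 39.1 ± 1.54 CPM per kb (SD, n = 3) and DDX54 at 37.8 ± 1.53 CPM per kb (SD, n = 3) came next and differed by less than 1 SD, and DDX3X followed at 35.2 ± 0.912 CPM per kb (SD, n = 3). Exon length is the union over all annotated transcripts, 15892 bases for DDX3X and 5020 for DDX21, so the per-kb order depends on the annotation. Without division by length, DDX3X was above DDX21 in DMSO, at 560 ± 14.5 against 409 ± 21.7 CPM (SD, n = 3). Under PdB the order on the same per-kb scale was led by DDX47 at 68.7 ± 2.98 CPM per kb (SD, n = 3) and DDX24 at 59.9 ± 1.05 CPM per kb (SD, n = 3), both above DDX21 at 46.6 ± 1.83 CPM per kb (SD, n = 3). After recovery DDX21 led again at 123 ± 3.08 CPM per kb (SD, n = 3), followed by DDX27 at 47.2 ± 1.32 CPM per kb (SD, n = 3). The lowest tested levels per kb in DMSO were those of DDX60L, 2.5 ± 0.149 CPM per kb (SD, n = 3), and of the testis-associated DDX53, 0.0403 ± 0.0149 CPM per kb (SD, n = 3). DDX4, DDX25 and DDX43, helicases of germ cells and testis, stayed at or under 0.318 CPM in every library.

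After 16 h of PdB, 12 of the 40 tested helicases rose, 25 fell and DDX11, DDX39A and DDX53 did not pass the test. Over all genes tested, 32.0% rose and 38.2% fell, 70.1% in either direction. These include non-coding genes, with 14226 annotated as protein-coding. They also include genes with few counts. With a minimum mean of 50 counts, 6228 of 15420 genes rose and 6495 fell, beside 13 and 22 helicases. Of coding genes with 7 to 13, 14 to 17 and 18 to 37 introns, 50.1%, 63.3% and 71.1% fell. In the same order, 29.3%, 19.7% and 13.4% rose. The median log2 change of the tested helicases was -0.48, against -0.11 for all genes. The DMSO and PdB libraries did not overlap for 36 of the 40, where the share over all genes was 72.5%. Changes of at least 2-fold were found for 8 risers and 11 fallers, 19 of 40, beside 39.7% of all genes. The rises were led by DDX47 and DDX28 and the falls by DDX60L and DDX17.

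At 24 h of recovery, 20 of the 40 were above DMSO by the same test, 10 were below it and 10 were not called. The shares over all genes were 30.7% above and 30.5% below, 61.2% together. The helicases' median log2 change from DMSO was 0.20, and that of all genes was 0.03. For 31 of the 40 the recovery and DMSO libraries did not overlap, beside 70.4% of all genes. Only 2 members stood at least 2-fold above DMSO, DDX55 and DDX6, and 3 at least 2-fold below, DDX50, DHX32 and DDX59, whereas the share over all genes for both directions was 25.4%. Recovery set against PdB gave 24 rises and 11 falls, with 34.6% and 31.5% of all genes (66.1% in either direction). The median log2 change there was 0.43 for the helicases and 0.06 for all genes, 17 members moved by at least 2-fold (32.9% of all genes), and 33 had groups that did not overlap (70.5% of all genes). The 3 comparisons share libraries, so their values are given side by side, and no correlation between them is reported. Scaling to raw library totals in place of TMM moved the median of all genes in PdB against DMSO from -0.11 to -0.31, and in recovery against PdB from 0.06 to 0.33, and all changes below are on the TMM scale.

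**Figure D1:**
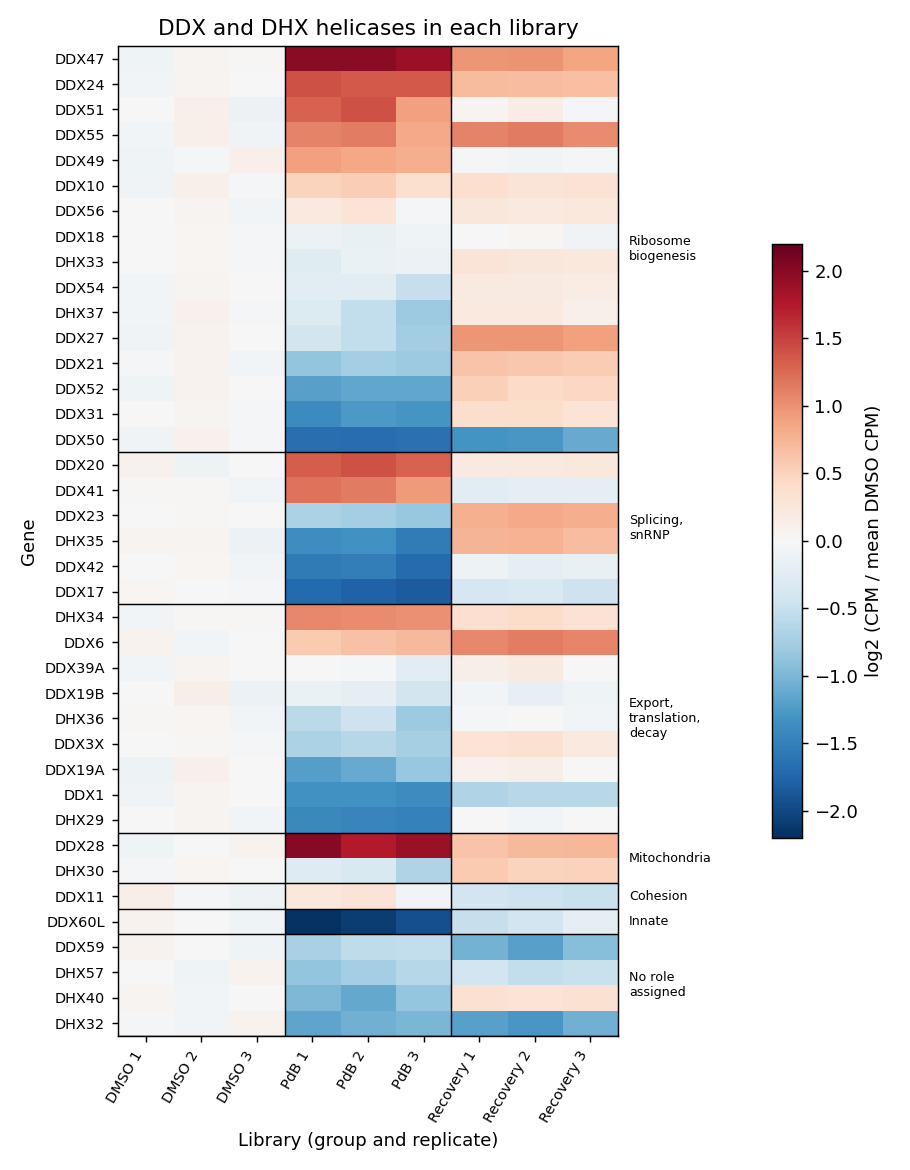
Colour shows the log2 ratio of each library's CPM to the mean CPM of the 3 DMSO libraries, for 39 tested helicases in rows grouped by role (DDX53, with at most 40 counts in a library, is not drawn) and the 9 libraries in columns. DDX47 and DDX28 are the darkest red under PdB and DDX60L the darkest blue, and most rows that are blue under PdB are pale or red after recovery.

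The 5' ends of 5 genes are shown. Among the members, DDX47 and DDX28 had the largest rises under PdB and DDX50 had the deepest fall at recovery. DDX21 is the neighbour and paralog of DDX50 on chromosome 10, and DHX35 had the largest rise of a member between PdB and recovery. Sequences are from RefSeq on GRCh38.p14, with 250 bases before the annotated start and 30 after it, read 5' to 3' along the gene. Capitals mark matches on either strand to CACGTG (the E-box of MYC, MAX and USF proteins) and CCGGAAG (an ETS factor core). DDX47 is at chr12:12813096-12813375 on the plus strand, DDX28 at chr16:68023203-68023482 on the minus strand, DDX50 at chr10:68901065-68901344, DDX21 at chr10:68955920-68956199 and DHX35 at chr20:38962094-38962373, these last 3 on the plus strand.
DDX47: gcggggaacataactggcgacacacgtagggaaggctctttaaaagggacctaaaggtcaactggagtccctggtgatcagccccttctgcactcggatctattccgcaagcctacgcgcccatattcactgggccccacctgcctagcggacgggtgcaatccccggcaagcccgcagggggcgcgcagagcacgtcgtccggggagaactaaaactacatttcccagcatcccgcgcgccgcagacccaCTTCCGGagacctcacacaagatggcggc
DDX28: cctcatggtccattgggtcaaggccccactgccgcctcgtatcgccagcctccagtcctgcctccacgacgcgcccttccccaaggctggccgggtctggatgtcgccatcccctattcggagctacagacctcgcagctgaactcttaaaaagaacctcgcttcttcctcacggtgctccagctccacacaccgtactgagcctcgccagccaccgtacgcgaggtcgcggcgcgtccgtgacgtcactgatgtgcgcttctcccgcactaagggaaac
DDX50: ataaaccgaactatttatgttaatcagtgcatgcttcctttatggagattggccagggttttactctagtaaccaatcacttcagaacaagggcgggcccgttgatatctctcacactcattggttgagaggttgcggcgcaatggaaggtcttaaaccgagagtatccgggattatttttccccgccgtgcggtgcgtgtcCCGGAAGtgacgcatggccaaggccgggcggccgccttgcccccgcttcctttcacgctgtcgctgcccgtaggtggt
DDX21: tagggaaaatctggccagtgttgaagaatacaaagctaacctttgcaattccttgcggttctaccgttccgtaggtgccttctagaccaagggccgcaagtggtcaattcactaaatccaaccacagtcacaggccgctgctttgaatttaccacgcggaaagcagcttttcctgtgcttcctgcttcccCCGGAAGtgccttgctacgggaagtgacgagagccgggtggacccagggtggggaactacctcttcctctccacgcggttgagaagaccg
DHX35: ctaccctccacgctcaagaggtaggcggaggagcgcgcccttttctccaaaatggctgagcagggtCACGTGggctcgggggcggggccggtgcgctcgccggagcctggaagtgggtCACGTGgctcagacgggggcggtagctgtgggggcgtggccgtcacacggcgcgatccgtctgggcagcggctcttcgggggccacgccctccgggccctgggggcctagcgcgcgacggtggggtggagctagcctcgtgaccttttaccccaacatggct
DDX47 holds 1 ETS match at its start, DDX50 and DDX21 hold 1 each upstream, DHX35 holds 2 E-boxes, and DDX28 holds neither motif. DDX60L and DDX17, with the deepest falls under PdB, are not shown, and their windows hold neither motif. Across the full windows of 300 bases (50 after the start), each motif was searched on its own, both strands, so a base may lie in more than 1 match, and 40 of the 44 members had an entry (DDX18, DDX49, DDX52 and DHX33 did not). The ETS core was in 15 of the 40 windows, 37.5%, and in 10.7% of all 27305 promoters of the same length. The E-box was in 7, 17.5%, beside 7.43% of all promoters: DDX31, DDX54, DHX32, DHX34, DHX35, DHX37 and DHX40. Of these 7, DHX34 rose under PdB and the other 6 fell. The ETS core was in 3 of 11 windows of members that rose under PdB and in 11 of 22 of members that fell. A TATAAA match was in 1 window, 2.5%, against 12% of all promoters. GGGCGG, the GC box, was in 52.5% of the members and 44.6% of all promoters, and CCAAT in 47.5% and 35.7%. Median GC content was 60.8% for the members and 58.3% for all promoters. A match describes letters in a window and not a bound site.

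The helicases of ribosome biogenesis split under PdB: 7 of 16 rose and 9 fell, beside 32.0% and 38.2% of all genes. After recovery 11 of the 16 were above DMSO and DDX50 alone was below it (all genes, 30.7% and 30.5%), with DDX18, DDX49, DDX51 and DHX37 not called. The median log2 change of the 16 was -0.15 under PdB and 0.29 after recovery. Members whose yeast counterparts serve the small ribosomal subunit went both ways, as DDX47, DDX49 and DDX10 rose while DDX52 and DHX37 fell. The large-subunit set did likewise, with DDX24, DDX51, DDX55 and DDX56 rising and DDX27, DDX31 and DDX54 falling. This split by subunit was made after the values were seen.

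DDX47, a helicase of early pre-rRNA processing, had the largest rise of the members. Its libraries read 84, 93.4 and 91.5 CPM in DMSO, 355, 354 and 329 CPM under PdB and 175, 179 and 164 CPM after recovery. The 3 groups were well apart, with PdB highest and recovery between PdB and DMSO. The log2 change was 1.95 ± 0.06 (SE) under PdB (edgeR adjusted p = 1.16e-15) and 0.95 ± 0.05 after recovery (edgeR adjusted p = 3.7e-11). The DDX47 gene, on chromosome 12 from 12813316 to 12829981, shares 36.5% of its exonic bases with APOLD1 on the same strand. In all 9 libraries the count of APOLD1 was 1.00 to 1.10 times that of DDX47, so the rows of these genes cannot be told apart.

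DDX24, a large-subunit assembly factor, rose with all 3 groups apart. Levels were 193, 209 and 200.4 CPM in DMSO, 528, 513 and 511 CPM under PdB and 324, 321 and 318 CPM after recovery. Every PdB library was above every recovery library, and those above every DMSO library. Its log2 change was 1.37 ± 0.04 (SE) under PdB (edgeR adjusted p = 5.68e-15) and 0.68 ± 0.04 after recovery (edgeR adjusted p = 1.76e-10). DDX55, whose yeast counterpart acts late in large-subunit assembly, was 46.9, 52.8 and 46.4 CPM in DMSO, 103, 106 and 86.6 CPM under PdB and 104, 107 and 100.4 CPM after recovery. It stood about equally high in both later groups, which overlapped each other and not DMSO. The log2 change from DMSO was 1.02 ± 0.07 (SE) under PdB and 1.09 ± 0.07 after recovery (edgeR adjusted p = 3.13e-10). Together with that of DDX6, this was the largest rise among the members at that time. Between recovery and PdB it was 0.07 ± 0.07 (SE, edgeR adjusted p = 0.387), and without PdB replicate 3, the lowest PdB library for this gene, it was -0.01.

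DDX21, which binds and unwinds pre-rRNA and snoRNA duplexes, fell and then overshot. It measured 400.4, 434 and 393 CPM in DMSO, 225, 243 and 234 CPM under PdB and 633, 615 and 602 CPM after recovery. No library of one group reached into another. Against DMSO, the log2 change was -0.81 ± 0.05 (SE) under PdB (edgeR adjusted p = 3.39e-11) and 0.59 ± 0.05 after recovery (edgeR adjusted p = 4.48e-09). DDX50, its paralog, lies next to it on the same strand of chromosome 10. DDX50 was at 76.6, 86.3 and 79 CPM in DMSO, 25.4, 25.3 and 25.7 CPM under PdB and 32.4, 33.2 and 37.5 CPM after recovery. Both later groups lay far below DMSO, with recovery a little above PdB. The log2 change of DDX50 was -1.66 ± 0.07 (SE) under PdB (edgeR adjusted p = 2.42e-13) and -1.23 ± 0.07 after recovery (edgeR adjusted p = 2.89e-11), the largest fall among the members then. The DDX21 count was 4.97 to 5.22 times the DDX50 count in DMSO, 8.84 to 9.58 times under PdB and 16.0 to 19.6 times after recovery, so the neighbours drew apart at each step.

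DDX27, a large-subunit factor, gave 127, 139.9 and 133 CPM in DMSO, 101, 92.2 and 78.6 CPM under PdB and 263, 261 and 249 CPM after recovery. It was lowest under PdB and highest after recovery, with no overlap of groups. edgeR gave a log2 change of -0.56 ± 0.07 (SE) and then 0.95 ± 0.07 from DMSO (edgeR adjusted p = 9.18e-07 and 9.89e-10). DDX52 and DDX31 showed the same order of groups with deeper falls, of -1.16 ± 0.06 and -1.32 ± 0.07 on the log2 scale (SE), and log2 rises above DMSO of 0.47 ± 0.06 and 0.36 ± 0.07. DDX54 and DHX33 moved less, by -0.32 ± 0.06 and -0.18 ± 0.05 (SE) under PdB and 0.19 ± 0.06 and 0.26 ± 0.05 after recovery. The fall of DHX33 was lost with RLE scaling, the median-ratio alternative to TMM (edgeR adjusted p = 0.189), and the rise of DDX54 without DMSO replicate 1 (edgeR adjusted p = 0.0631).

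DDX51 and DDX49 rose under PdB, with log2 changes of 1.22 ± 0.10 and 0.85 ± 0.06 (SE), and after recovery lay 0.07 ± 0.10 and -0.05 ± 0.06 from DMSO, neither called. DDX51 in PdB replicate 3 was at 69 CPM, below the other PdB libraries at 90.7 and 97.4 CPM and above the DMSO maximum of 39.7 CPM. DDX10, a small-subunit factor, was higher in both later groups by 0.47 ± 0.06 and 0.32 ± 0.06 on the log2 scale (SE). DDX56 was called higher in both by a small margin, 0.16 ± 0.07 and 0.23 ± 0.07 (SE), but its PdB range of 88.2 to 111 CPM overlapped the DMSO range of 86.7 to 94.8 CPM, the call under PdB ended when any library but PdB replicate 3 was left out (edgeR adjusted p from 0.0525 to 0.301), and its sign turned to -0.04 with library totals. DDX18 and DHX37 fell under PdB by 0.13 and 0.54 on the log2 scale, and with upper-quartile scaling DDX18 was 0.02 above DMSO. For DDX18 the fall ended with RLE scaling (edgeR adjusted p = 0.572), without DMSO replicate 2 (0.0756) and without PdB replicate 2 (0.0771). DHX37 after recovery stood 0.18 ± 0.09 (SE) above DMSO, not called (edgeR adjusted p = 0.0822), and was called without PdB replicate 1 (0.0305) or 3 (0.0146), under RLE scaling (0.0357) and with a replicate block (0.0352).

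**Figure D2:**
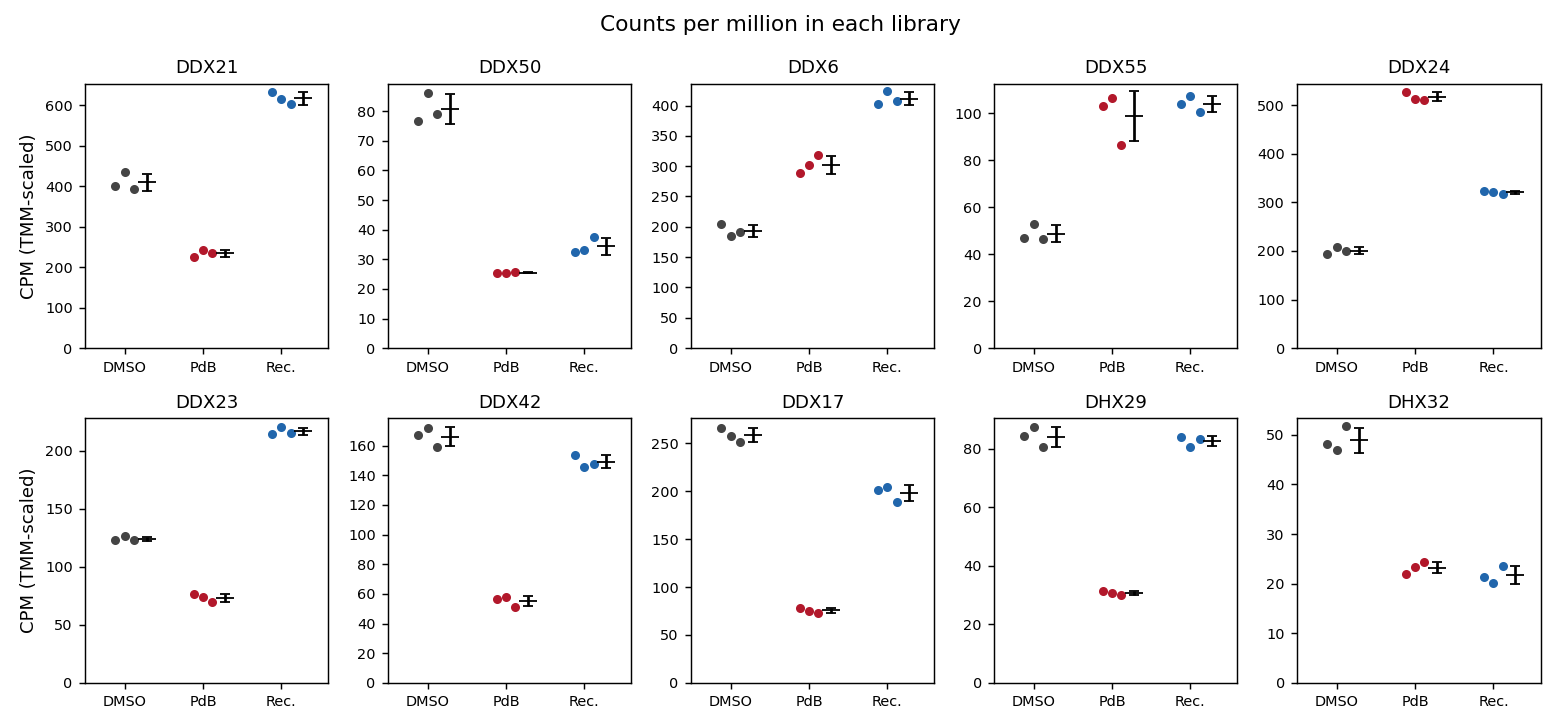
Points are the CPM of single libraries (TMM-scaled, linear axis from 0) for 10 helicases in the DMSO, PdB and recovery (Rec.) groups, with horizontal bars at the mean and vertical bars at 1 SD, n = 3. DDX21 and DDX23 are lowest under PdB and highest after recovery, DDX50 and DHX32 stay low, and DDX55 stays high.

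All 6 helicases of splicing and snRNP assembly changed in both comparisons with DMSO, 2 rising and 4 falling under PdB, then 3 above and 3 below DMSO after recovery. Over all genes, 70.1% changed in the first comparison and 61.2% in the second. DDX42 is the member with a known link to the drug's target, as it associates with SF3b in the U2 snRNP. Its level was 167, 172 and 159 CPM in DMSO, 56.5, 57.8 and 51.4 CPM under PdB and 154, 145 and 148 CPM after recovery. PdB lay far below every other library, and recovery just under the lowest DMSO library. The fall under PdB was -1.59 ± 0.06 (SE) on the log2 scale (edgeR adjusted p = 1.69e-14). After recovery the change was -0.16 ± 0.05 (edgeR adjusted p = 0.0179), and that call ended with RLE scaling (0.0989), with library totals (0.144), and without DMSO replicate 2 (0.087), recovery replicate 2 (0.0793) or recovery replicate 3 (0.0598).

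DDX23, the U5 helicase that swaps U1 for U6 at the 5' splice site, was at 123, 126 and 123 CPM in DMSO, 76.2, 73.8 and 69.7 CPM under PdB and 214, 220.2 and 215 CPM after recovery. Groups did not overlap, and recovery exceeded DMSO by about as much on the log2 scale as PdB fell short of it. In log2 units the change was -0.76 ± 0.05 (SE) under PdB (edgeR adjusted p = 7.55e-11) and 0.80 ± 0.05 after recovery (edgeR adjusted p = 6.12e-11). DHX35, a DEAH helicase of the late spliceosome, read 27.2, 27.2 and 23.8 CPM in DMSO, 10.1, 10.4 and 9.03 CPM under PdB and 43.8, 44.5 and 41.7 CPM after recovery. It took the same path from a lower level, with no overlap of groups. Its log2 change was -1.41 ± 0.08 (SE) under PdB and 0.73 ± 0.08 after recovery, and from PdB to recovery 2.14 ± 0.08, the largest of any member (edgeR adjusted p = 1.34e-13).

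DDX41, a helicase found in late spliceosomes and mutated in inherited myeloid neoplasms, went the other way. Libraries read 78.2, 78.1 and 73.2 CPM in DMSO, 176, 169 and 146 CPM under PdB and 65.3, 66.7 and 67.1 CPM after recovery. PdB was well above the rest, and recovery fell below the lowest DMSO library. This was a log2 change of 1.10 ± 0.06 (SE) under PdB (edgeR adjusted p = 1.77e-11) and -0.21 ± 0.06 after recovery (edgeR adjusted p = 0.0089), the latter not called with upper-quartile scaling (0.0774) or library totals (0.0502). DDX20, or Gemin3, the helicase of the SMN complex that loads Sm proteins on snRNAs, was at 41.8, 36.1 and 39.5 CPM in DMSO, 98.5, 103 and 96.4 CPM under PdB and 44.9, 45.6 and 45.7 CPM after recovery. It rose clear of both other groups and returned most of the way. Its log2 change was 1.34 ± 0.06 (SE) under PdB (edgeR adjusted p = 6.7e-13) and 0.21 ± 0.06 after recovery (edgeR adjusted p = 0.00546), and without DMSO replicate 2, its lowest DMSO library, the latter was 0.16 (edgeR adjusted p = 0.051).

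DDX17, the paralog of DDX5 and a cofactor of splicing and microRNA processing, was at 266, 258 and 251 CPM in DMSO, 78.6, 75.5 and 72.5 CPM under PdB and 201, 205 and 189 CPM after recovery. PdB libraries were far below the rest, and recovery ones lay between them and DMSO. The log2 change was -1.77 ± 0.05 (SE) under PdB (edgeR adjusted p = 1.39e-15), the deepest fall after that of DDX60L, and -0.38 ± 0.05 after recovery (edgeR adjusted p = 1.99e-06).

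Of the 9 tested helicases of mRNA export, translation, tRNA ligation and mRNA decay, 2 rose under PdB, 6 fell and DDX39A was not called, where 32.0% and 38.2% of all genes rose and fell. After recovery 3 were above DMSO, DDX1 was below and 5 were not called (all genes, 30.7% above and 30.5% below). DDX6, which holds mRNA in P-bodies and promotes decapping, climbed through both steps. Its libraries gave 204, 185 and 192 CPM in DMSO, 288, 301 and 318 CPM under PdB and 402, 424 and 408 CPM after recovery. Each group was above the one before it with no overlap. Against DMSO, the log2 change was 0.64 ± 0.05 (SE) under PdB (edgeR adjusted p = 1.54e-09) and 1.09 ± 0.05 after recovery (edgeR adjusted p = 2.54e-12). DHX34, a helicase of nonsense-mediated decay, was the other riser, with 1.04 ± 0.05 (SE) under PdB and 0.36 ± 0.05 after recovery.

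DDX3X, which helps translate mRNAs with structured leaders, had the highest CPM of the members in DMSO. It stood at 565, 571 and 544 CPM in DMSO, 347, 363 and 337 CPM under PdB and 693, 708 and 652 CPM after recovery. Groups did not overlap, with PdB lowest and recovery highest. edgeR gave a log2 change of -0.68 ± 0.05 (SE) under PdB (edgeR adjusted p = 1.7e-10) and 0.29 ± 0.05 after recovery (edgeR adjusted p = 2.16e-05). DHX29, a ribosome-bound helicase of scanning, was at 84.2, 87.5 and 80.7 CPM in DMSO, 31.4, 30.7 and 30.1 CPM under PdB and 84.2, 80.7 and 83.2 CPM after recovery. It fell to well under all other libraries and came back to the DMSO range, but for 1 recovery library just beneath its lowest value. In log2 units the change was -1.45 ± 0.06 (SE) under PdB (edgeR adjusted p = 6.04e-14) and -0.02 ± 0.05 after recovery (edgeR adjusted p = 0.714), and the sign of the latter turned with scaling.

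DHX36, which resolves G-quadruplexes in RNA and DNA, was at 42.8, 43.1 and 40.1 CPM in DMSO, 27.9, 30.6 and 24.1 CPM under PdB and 41.2, 42.3 and 40.5 CPM after recovery. It too was lower under PdB only, and its recovery libraries lay inside the DMSO range. This was a log2 change of -0.61 ± 0.08 (SE) under PdB (edgeR adjusted p = 1.53e-06) and -0.02 ± 0.08 after recovery (edgeR adjusted p = 0.821). DDX1, a subunit of the tRNA ligase complex, gave 102, 112 and 108 CPM in DMSO, 42.4, 42.3 and 41.2 CPM under PdB and 67.8, 70.4 and 69.9 CPM after recovery. The fall under PdB was only partly made up, with all 3 groups apart. Its log2 change was -1.35 ± 0.06 (SE) under PdB (edgeR adjusted p = 1.34e-13) and -0.62 ± 0.05 after recovery (edgeR adjusted p = 9.19e-09).

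DDX19A and DDX19B are adjacent paralogs of the helicase that strips proteins from mRNA at the nuclear pore. DDX19A was at 35.6, 41.4 and 38.2 CPM in DMSO, 16.6, 17.8 and 21.5 CPM under PdB and 40.9, 42.2 and 38.6 CPM after recovery. It was lower under PdB in every library and back in the DMSO range after recovery, but for recovery replicate 2, just above the highest DMSO value. The log2 change was -1.04 ± 0.09 (SE) under PdB (edgeR adjusted p = 6.81e-09) and 0.08 ± 0.09 after recovery (edgeR adjusted p = 0.457). DDX19B was at 14.2, 15.7 and 13 CPM in DMSO, 12.9, 12.4 and 10.8 CPM under PdB and 13.7, 12.7 and 13.4 CPM after recovery. For DDX19B, PdB lay just below DMSO without overlap, and recovery overlapped both. The change under PdB was -0.25 ± 0.10 (SE, edgeR adjusted p = 0.0417), which was not called with RLE scaling (0.209), without PdB replicate 3 (0.156) and without DMSO replicate 1 (0.0669) or 2 (0.178). The DDX19B count was 0.341 to 0.398 of the DDX19A count in DMSO, 0.5 to 0.78 under PdB and 0.3 to 0.348 after recovery. Both share exons with a read-through gene on the same strand, ENSG00000260537, whose count was 0.847 to 1.04 times that of DDX19A, so DDX19A and the read-through row cannot be told apart.

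DDX39A, the paralog of the export and splicing helicase DDX39B, was at 145, 156 and 149.7 CPM in DMSO, 152, 147 and 126 CPM under PdB and 164, 173 and 152 CPM after recovery. PdB and recovery each overlapped DMSO. Against DMSO, the log2 change was -0.08 ± 0.07 (SE) under PdB (edgeR adjusted p = 0.26) and 0.12 ± 0.07 after recovery (edgeR adjusted p = 0.138). The sign under PdB turned with RLE and upper-quartile scaling, and with library totals it fell by 0.28 (edgeR adjusted p = 0.000347). After recovery the rise was called with RLE scaling (0.0483) and without PdB replicate 3 (0.0495).

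The mitochondrial helicases DDX28 and DHX30, which both serve assembly of the mitochondrial ribosome, parted under PdB. DDX28, an intronless gene, was at 8.38, 8.93 and 9.4 CPM in DMSO, 35.7, 29.7 and 33.2 CPM under PdB and 13.7, 14.5 and 14.7 CPM after recovery. PdB libraries were more than 3 times any DMSO library, and recovery lay between. edgeR gave a log2 change of 1.88 ± 0.09 (SE) under PdB (edgeR adjusted p = 1.79e-12) and 0.69 ± 0.09 after recovery (edgeR adjusted p = 3.32e-06). DDX28 shares 22.5% of its exonic bases with DUS2 on the opposite strand, and DUS2 fell under PdB by 2.04 on the log2 scale; whether reads were counted by strand is not given in the sources used here. DHX30 was at 173, 184 and 177 CPM in DMSO, 146, 140.2 and 113 CPM under PdB and 265, 248 and 253 CPM after recovery. It was lowest under PdB, most of all in replicate 3, and highest after recovery with no overlap. Its log2 change was -0.42 ± 0.07 (SE) under PdB (edgeR adjusted p = 4.34e-05) and 0.52 ± 0.07 after recovery (edgeR adjusted p = 3.96e-06).

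DDX11, a DNA helicase of sister chromatid cohesion, was at 87.1, 77.8 and 73 CPM in DMSO, 92.6, 96.7 and 76.3 CPM under PdB and 59.2, 57.5 and 56.6 CPM after recovery. PdB and DMSO overlapped, and recovery was below both. The change under PdB was 0.16 ± 0.08 (SE) on the log2 scale (edgeR adjusted p = 0.0812), and after recovery -0.46 ± 0.08 (edgeR adjusted p = 6.59e-05). The first was called as a rise with RLE scaling (0.00868), without DMSO replicate 1 (0.0289) or PdB replicate 3 (0.00185) and with a replicate block (0.0264), and turned to -0.04 with library totals. DDX11 has near-identical pseudogene copies counted in rows of their own, DDX12P and DDX12B, so its counts are uncertain.

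DDX60L, a close relative of the interferon-induced DDX60, had the deepest fall of any member. Libraries read 32.1, 30.7 and 28.5 CPM in DMSO, 6.74, 7.19 and 7.95 CPM under PdB and 21.4, 22.8 and 26.4 CPM after recovery. PdB lay far below every other library, and recovery stayed under DMSO without overlap. In log2 units the change was -2.06 ± 0.10 (SE) under PdB (edgeR adjusted p = 1.64e-12) and -0.37 ± 0.09 after recovery (edgeR adjusted p = 0.00197).

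The 4 members with no role assigned all fell under PdB, as did 38.2% of all genes, and 3 of them were still below DMSO after recovery, as were 30.5% of all genes. DHX32, a divergent DEAH protein, gave 48.2, 46.9 and 51.7 CPM in DMSO, 22, 23.4 and 24.4 CPM under PdB and 21.3, 20.1 and 23.7 CPM after recovery. PdB and recovery overlapped, and both were far below DMSO. This was a log2 change of -1.07 ± 0.08 (SE) under PdB (edgeR adjusted p = 4.84e-10) and -1.17 ± 0.08 after recovery (edgeR adjusted p = 2.63e-10). It shares 10.4% of its exonic bases with BCCIP on the opposite strand, which rose by 0.62 on the log2 scale under PdB. DDX59 was at 17.6, 16.6 and 15.5 CPM in DMSO, 10.1, 11.2 and 11.4 CPM under PdB and 8.02, 7.22 and 8.67 CPM after recovery. Recovery lay below PdB and PdB below DMSO, with no overlap between groups. The log2 change was -0.61 ± 0.11 (SE) under PdB (edgeR adjusted p = 4.81e-05) and -1.05 ± 0.11 after recovery (edgeR adjusted p = 7.98e-08), and the step from PdB to recovery was called with TMM (edgeR adjusted p = 0.00127) and not with library totals (0.164). DHX57 fell by 0.74 and stayed down by 0.48 (log2 from DMSO), and DHX40 changed by -0.98 ± 0.08 and then 0.32 ± 0.07 (SE).

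Each member's path was then read from the 3 tests together, as a description with no further test, since the comparisons share libraries. Persistent members, changed in the same direction under PdB and after recovery, numbered 17, with 9 higher and 8 lower, where the class held 38.9% of all genes tested. Returned members, changed under PdB, moved back and no longer called against DMSO, numbered 7 (16.5% of all genes). They were DDX49 and DDX51 from above and DHX29, DHX36, DHX37, DDX18 and DDX19A from below. Overshooting members, called on opposite sides of DMSO under PdB and after recovery, numbered 12 of 40, and the class held 11.4% of all genes. Of these 12, 11 fell under PdB and then exceeded DMSO: DDX21, DDX27, DDX31, DDX52, DDX54, DHX33, DDX23, DHX35, DDX3X, DHX30 and DHX40. Among all genes that fell under PdB, 16.9% overshot, and among the 25 helicases that fell it was these 11. This path was not particular to the members. Of the left-out helicases, DDX5, DHX8 and DHX58 also fell and then exceeded DMSO, while DDX60, DHX16 and DHX9 fell and stayed below it. Among the members, DDX41 was the reverse case. Across 17 alternative settings (all but the stricter adjusted p of 0.01), 9 of the 12 kept this class in every one, and DDX41, DDX54 and DHX33 kept it in 15, 16 and 12. Of the 17 persistent members, 14 kept theirs in every setting, and DDX20, DDX42 and DDX56 in 16, 9 and 7. Of the 7 returned members, DDX18 and DHX37 kept theirs in 7 settings each and the other 5 in all 17. DDX11 changed after recovery only, DDX19B was not called in either comparison with recovery, and DDX39A and DDX53 were not called against DMSO at either time.

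**Figure D3:**
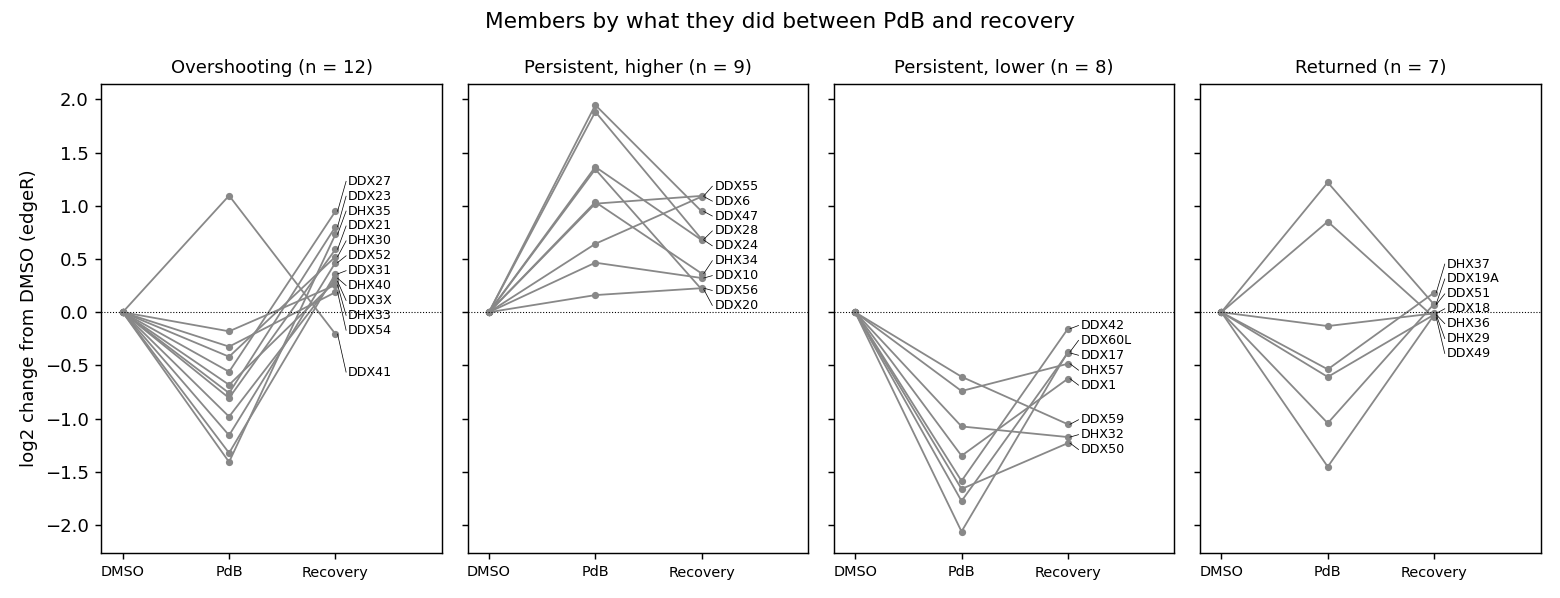
Lines join the log2 change from DMSO (edgeR, 3 libraries a group) of each helicase at 0 for DMSO, under PdB and after recovery, in panels for the 12 overshooting, 17 persistent (9 higher, 8 lower) and 7 returned members. In the first panel 11 lines dip under PdB and end above 0, and DDX41 does the opposite.

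Intron number is a feature that bears on a splicing inhibitor, and it was taken from each gene's principal transcript in GENCODE 29. DDX28 and DDX53 have none, and DDX60L has the most of the tested members, 37. All 12 helicases that rose under PdB had at most 17 introns. Of the 13 members with 18 to 37 introns, none rose, 12 fell and DDX11 was not called, and their median log2 change was -0.74. That range starts just above the riser with the most introns, DDX10 with 17, so the absence of risers in it follows from the cut. For the 2020 coding genes in the same range the median was -0.87, and 13.4% of them rose and 71.1% fell. Among the 15 members with 7 to 13 introns, 7 rose and 7 fell, and the 4509 coding genes in that range had 29.3% rising and 50.1% falling. Among the 10 members with 14 to 17 introns, 4 rose and 6 fell, and 19.7% of the 1342 coding genes there rose and 63.3% fell. Over the 40 tested members, Spearman's rho between intron number and log2 change was -0.49 for PdB against DMSO, and it was -0.34 over 14226 coding genes. From PdB to recovery rho was 0.54 for the members and 0.21 for the coding genes, and against DMSO after recovery it was -0.15 and -0.20. All points come from the same 9 libraries, and genes are not independent replicates. The part of intron number in the changes was not tested.

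**Figure D4:**
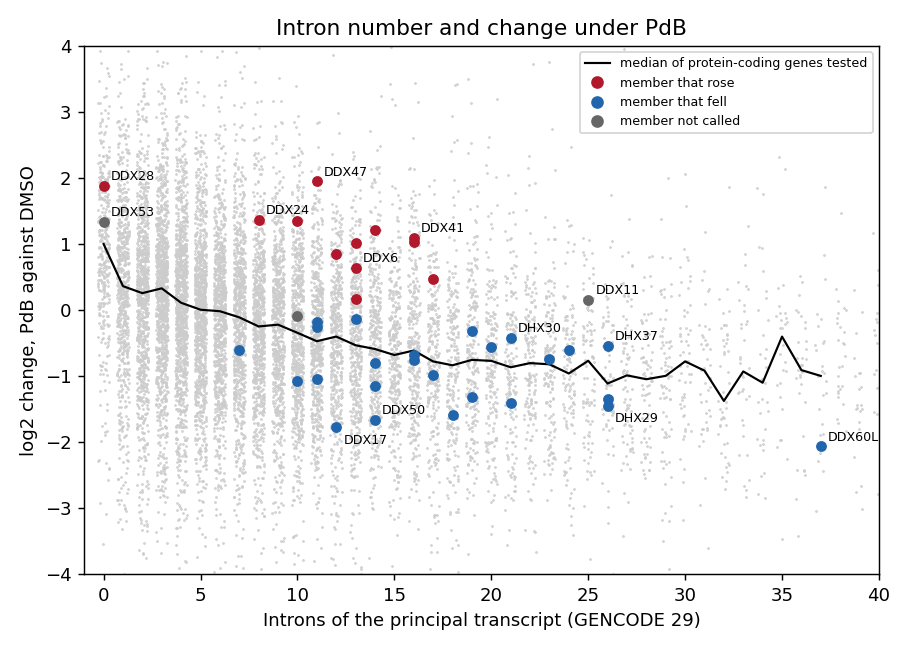
Each large point is a helicase and each small grey point a protein-coding gene, placed by the introns of its principal transcript (horizontal, jittered for grey points) and its log2 change in PdB against DMSO (vertical), and the line joins the coding-gene medians at each intron number. Genes beyond 40 introns or a log2 change of 4 either way are outside the frame, and no red point, a member that rose, lies beyond 17 introns.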

How the data were processed

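RNA from 9 libraries of MDA-MB-231 cells was isolated with a column kit, and poly(A) libraries were made with the Universal Plus mRNA-Seq kit, per the labels' protocols. The authors deposited 1 table of raw counts per gene, with 60708 gene rows and no normalization. The submitters' processing notes name fastp 0.23.2, STAR 2.7.9a, Picard, featureCounts 2.0.3, DESeq2 1.30.0 and hg38. For their settings, the annotation release, duplicates, multi-mapping reads and strand, nothing was given in the sources used here.

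From these counts, edgeR 4.0.16 (R 4.3.3) fitted 1 quasi-likelihood model over the 3 groups, with filterByExpr, TMM scaling and Benjamini-Hochberg adjustment at 0.05 over the 20812 genes kept; tests were two-sided. The procedure was run on simulated counts in which 200 genes were changed, far fewer than the 14599 called under PdB. Scaling when most genes change was therefore not tested by it. Gene symbols were available for 60507 rows, exons and introns came from GENCODE 29 (58440 rows matched), and promoters from RefSeq.

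The members and gene lists were chosen with earlier results of these data known. Values in every library are given for members with the 4 largest rises and falls against DMSO in each treated group and the 2 largest from PdB to recovery, among those with a mean of at least 100 counts, and for DDX42, DDX23, DDX41, DDX17, DDX11, DDX28, DDX3X, DDX6, DDX21, DDX50, DHX36, DHX29, DHX30, DDX19A, DDX19B and DDX39A.

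The labels do not say that replicate numbers pair the samples, so the main fit used no block. Same-numbered libraries of different groups deviated from their group means with correlations of -0.003 to 0.048. Correlations of differently numbered libraries were not computed, so a weak shared batch cannot be told apart from none. Libraries within a group differed by 4.87 to 24.1 times the sampling noise (chi-square per degree of freedom), so none was a duplicate. Alternatives were other scalings, other filters, DESeq2 1.42.0, a replicate block, only the 6 libraries compared, an adjusted p of 0.01 and leaving out each library.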

Additional observations from a re-analysis of the deposited data

How the results depend on the processing

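The numbers of DDX and DHX members that rose or fell, and of persistent, overshooting and returned members, stayed within 1.5 times their main values under every alternative run. With a replicate block, 13 members rose and 25 fell under PdB, 21 and 10 were above and below DMSO after recovery, and 24 and 11 moved from PdB to recovery; DDX11 (PdB) and DHX37 (recovery) were gained and no other member call changed. The members' median log2 change depended on scaling. For PdB against DMSO it was -0.38 with RLE, -0.33 with upper-quartile scaling, -0.68 with library totals, -0.41 with a minimum mean of 50 counts, -0.38 with DESeq2, -0.40 with only the 6 libraries compared, and -0.57 to -0.42 leaving out 1 library. For recovery against DMSO it was 0.28 with upper-quartile scaling and 0.27 with library totals. For recovery against PdB it was 0.38 with RLE, 0.36 with upper-quartile scaling, 0.70 with library totals, 0.35 with the minimum of 50 counts and 0.38 with DESeq2.

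Among the members given by library, these changes turned sign. In PdB against DMSO, DDX11 was -0.0397 with library totals, and DDX39A was 0.0117 with RLE, 0.0643 with upper-quartile scaling, 0.0382 with the minimum of 50 counts and 0.0116 with DESeq2. In recovery against DMSO, DHX36 was 0.0225 with RLE, 0.0532 with upper-quartile scaling, 0.0484 with library totals, 0.0164 with the minimum of 50 counts and 0.0225 with DESeq2. DHX29 was 0.0204, 0.0512, 0.0466, 0.0143 and 0.0204 in the same order, and -0.0579 to 0.00258 leaving out 1 library, above 0 without DMSO replicate 2. In recovery against PdB, DDX55 was -0.0108 with the minimum of 50 counts and -0.0119 to 0.135 leaving out 1 library, lowest without PdB replicate 3, and DHX32 was 0.167 with library totals. Among the other members, 3 called changes turned sign, and none of them was then called. DDX56 (PdB) went to -0.0375 and DDX10 (recovery against PdB) to 0.125 with library totals, and DDX18 (PdB) to 0.0198 with upper-quartile scaling. DDX53, not called, turned from -0.65 to 0.219 in recovery against PdB without PdB replicate 1, and the uncalled changes of DDX18 and DDX49 after recovery and of DDX56 from PdB to recovery also turned. Over the members given by library, 1337 alternative values kept direction and call, 29 lost the call, 19 gained it and 19 turned sign. The cause was not tested. Depth limited DDX53, with 7 to 40 counts per library, and no other tested member had fewer than 381.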

Other observations

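DEAD and DEAH helicases are switched on by partner proteins, most of them with a G-patch or MIF4G domain, and 29 such cofactor genes were measured, among them CASC3 and GLE1, which act on EIF4A3 and DDX19 in other ways. Under PdB 11 rose and 18 fell (all genes, 32.0% and 38.2%), after recovery 18 were above DMSO and 6 below (30.7% and 30.5%), and from PdB to recovery 19 rose and 7 fell (34.6% and 31.5%). Of the 18 that fell, CMTR1, GPATCH1, GPATCH4, GPATCH11, GPKOW, RBM5, RBM6, RBM17 and SUGP1 were called above DMSO after recovery, and the rest were not. NKRF, the G-patch partner of DHX15 in pre-rRNA processing, had the largest rise under PdB, from 37.4 ± 3.6 to 161 ± 11.1 CPM (SD, n = 3), with a log2 change of 2.11 ± 0.07 (SE, edgeR adjusted p = 1.01e-14). GPKOW, a spliceosomal G-patch protein, had the largest fall, from 31.2 ± 1.51 to 9.65 ± 1.25 CPM, or -1.69 ± 0.09 on the log2 scale (edgeR adjusted p = 6.44e-12). TFIP11, which acts with DHX15 in spliceosome disassembly, stood highest above DMSO after recovery at 102 ± 1.97 against 30.9 ± 0.985 CPM, a log2 change of 1.72 ± 0.06 (edgeR adjusted p = 1.00e-13). EIF4G3, a scaffold of translation initiation, stood lowest then, at -0.91 ± 0.05 (edgeR adjusted p = 6.52e-11).

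Of 20 tested RNA helicases that carry no DDX or DHX symbol, 6 rose and 11 fell under PdB, and 9 were above and 6 below DMSO after recovery. The shares over all genes were 32.0% and 38.2%, then 30.7% and 30.5%, so the 6 of 20 in each case were near the share of all genes. The deepest fall was in HELZ2, an interferon-related helicase, from 63.4 ± 6.28 to 8.87 ± 1.98 CPM and then 121 ± 3.38 CPM after recovery, with log2 changes from DMSO of -2.84 and 0.93 and of 3.77 from PdB to recovery. SUPV3L1, a mitochondrial RNA helicase, rose from 45.7 ± 1.92 to 130 ± 7.7 CPM under PdB. The 3 eIF4A helicases, named after their values were seen, all rose under PdB, with log2 changes of 0.58 for EIF4A1, 1.04 for EIF4A2 and 1.06 for EIF4A3, and EIF4A2 was still 1.21 above DMSO after recovery. Of the 10 helicases that the choice of members left out, 4 rose and 6 fell under PdB, beside 32.0% and 38.2% of all genes.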
